A study of Mus musculus with 3 samples.

Results

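The enriched regions of 2 forms of RNA polymerase II, Pol2-S5p and Pol2-S7p, were compared along mouse protein-coding genes of 10 kb or longer. The genes were those of the GENCODE annotation on 21 chromosomes of the mm10 assembly, of which 14164 of 21938 protein-coding genes had this length. Past the gene end the comparison used the 4464 of them with a free end, meaning that no other protein-coding or long noncoding RNA gene lay within 20 kb beyond it. A further 5840 of the 14164 genes, an overlapping selection, were clear of others: they overlapped no other gene and had none within 5 kb of the start.

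Both marks were mapped by chromatin immunoprecipitation sequencing in untreated F123 cells, an F1 hybrid line (S129/Jae and Cast) of male mouse embryonic stem cells. The cells were grown on inactivated mouse embryonic fibroblasts and moved to gelatin without feeders, with the LIF concentration raised, before harvest. Antibody CTD4H8 was used for Pol2-S5p and antibody 4E12 for Pol2-S7p, with 1 library per mark. There are therefore no replicates and no tests, and intervals around shares of genes cover counting error only.

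The largest subunit of RNA polymerase II, Polr2a, ends in a long tail of repeated heptads, the C-terminal domain (CTD). Kinases phosphorylate serine 5 of the repeats as the polymerase leaves the promoter, where the mark helps recruit the enzymes that cap the RNA, and serine 7 is phosphorylated on polymerase that transcribes productively. In embryonic stem cells, many developmental genes held by Polycomb carry polymerase with the serine 5 mark at the promoter while little mature RNA is made.

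The Pol2-S5p list held 29222 regions with a median width of 2000 bp and the Pol2-S7p list 22320 regions with a median of 2200 bp. Pol2-S5p covered 330 Mb, 12.1% of the chromosomes, and Pol2-S7p 261 Mb, 9.58%, so that Pol2-S7p covered 79.1 bases for every 100 of Pol2-S5p. Within the bodies of the genes compared, taken from 2 kb after the start to the gene end, the same ratio was 80.1. Of 12 markers of embryonic stem cells, 11 had the annotated start in regions of both marks, among them the pluripotency factors Pou5f1, Nanog and Sox2. The exception was Esrrb, another pluripotency factor, of which 77.9% was covered by Pol2-S5p and 55.5% by Pol2-S7p although neither mark lay at its outermost start. Of 12 fibroblast markers, which the feeder cells would carry, 8 had neither mark at the start, and the collagen genes Col1a1, Col1a2 and Col3a1 were covered over 0% of their length by either mark. The others did carry marks. Twist1 had both marks at the start and 43.0% of its length covered by each. Thy1, Twist2 and Pdgfra had Pol2-S5p alone at the start, and Pol2-S5p covered 100% of Thy1.

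Promoters of the patterns described below are printed first, because these 8 genes, whose bodies carried both marks, one of them or hardly any, all began in sequence rich in CG. Each line gives the 200 bases before the annotated start, read in the direction of the gene from the mm10 reference, with every CG in capitals. Dst and Tanc1 carried both marks along the whole body, Wnk2 and Mb21d2 Pol2-S5p alone, Rnf115 and Gak Pol2-S7p alone, and Macrod2 and Csmd1 had both marks at the start and hardly any in the body.
Dst, chr1:33908025-33908224, plus strand: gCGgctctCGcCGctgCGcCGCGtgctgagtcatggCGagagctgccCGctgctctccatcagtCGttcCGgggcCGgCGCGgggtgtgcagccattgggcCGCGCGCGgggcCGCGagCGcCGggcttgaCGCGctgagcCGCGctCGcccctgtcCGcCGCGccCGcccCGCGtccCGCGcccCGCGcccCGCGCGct
Tanc1, chr2:59611842-59612041, plus strand: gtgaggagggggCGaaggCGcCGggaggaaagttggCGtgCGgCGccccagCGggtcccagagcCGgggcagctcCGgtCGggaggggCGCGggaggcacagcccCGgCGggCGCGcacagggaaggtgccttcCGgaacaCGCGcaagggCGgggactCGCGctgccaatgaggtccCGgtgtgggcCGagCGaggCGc
Wnk2, chr13:49148015-49148214, minus strand: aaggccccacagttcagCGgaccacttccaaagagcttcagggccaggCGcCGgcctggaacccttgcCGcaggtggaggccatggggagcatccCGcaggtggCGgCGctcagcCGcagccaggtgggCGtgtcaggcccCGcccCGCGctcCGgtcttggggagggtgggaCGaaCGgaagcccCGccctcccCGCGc
Mb21d2, chr16:28929674-28929873, minus strand: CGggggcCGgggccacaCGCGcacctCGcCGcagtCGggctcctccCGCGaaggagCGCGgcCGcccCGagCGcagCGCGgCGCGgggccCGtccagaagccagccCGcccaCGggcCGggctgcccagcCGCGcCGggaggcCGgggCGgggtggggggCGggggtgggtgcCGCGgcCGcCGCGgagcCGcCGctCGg
Rnf115, chr3:96727464-96727663, plus strand: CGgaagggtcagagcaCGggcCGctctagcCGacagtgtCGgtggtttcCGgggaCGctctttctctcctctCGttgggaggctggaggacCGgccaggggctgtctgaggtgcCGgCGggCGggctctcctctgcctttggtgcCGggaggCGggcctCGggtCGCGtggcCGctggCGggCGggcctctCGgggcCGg
Gak, chr5:108629756-108629955, minus strand: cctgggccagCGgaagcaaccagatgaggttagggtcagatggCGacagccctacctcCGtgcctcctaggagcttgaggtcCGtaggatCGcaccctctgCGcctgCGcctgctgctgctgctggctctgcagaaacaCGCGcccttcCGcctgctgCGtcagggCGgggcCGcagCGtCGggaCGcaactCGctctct
Macrod2, chr2:140395109-140395308, plus strand: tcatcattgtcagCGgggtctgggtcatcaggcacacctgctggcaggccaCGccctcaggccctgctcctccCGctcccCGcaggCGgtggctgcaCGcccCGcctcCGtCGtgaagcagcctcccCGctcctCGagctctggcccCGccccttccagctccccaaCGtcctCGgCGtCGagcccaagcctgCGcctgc
Csmd1, chr8:17535587-17535786, minus strand: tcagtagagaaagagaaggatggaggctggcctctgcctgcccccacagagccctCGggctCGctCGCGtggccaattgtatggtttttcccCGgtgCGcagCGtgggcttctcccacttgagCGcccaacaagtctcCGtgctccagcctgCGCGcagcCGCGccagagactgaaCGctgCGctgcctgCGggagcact
The number of CG in these 200 bases was 39 for Dst, 26 for Tanc1, 18 for Wnk2, 36 for Mb21d2, 22 for Rnf115, 17 for Gak, 17 for Macrod2 and 16 for Csmd1. From 250 bases before to 50 after the start they held 20 to 53 CG, compared with a median of 15 over all genes. All 8 had both marks at the start, and the median over all genes with such starts was 21.

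At the annotated start both marks were common and Pol2-S5p was the broader set. A region of Pol2-S5p held the start of 71.7% of the genes (interval 71.0 to 72.5%) and a region of Pol2-S7p that of 63.4% (62.6 to 64.2%). Both marks lay at the start of 8846 genes, 62.5% of all, and neither at 3871 genes, 27.3%. Pol2-S5p stood alone at 1311 starts, 9.26%, and Pol2-S7p alone at 136, 0.960%, so that 90.6% of the starts with a single mark had Pol2-S5p (89.0 to 92.1%). Pol2-S7p at the start was thus mostly accompanied by Pol2-S5p. Starts with Pol2-S7p alone numbered 467 when regions under 1 kb were left out and 1012 when regions over 50 kb were left out.

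Past the start the lead of Pol2-S5p shrank within a few kb. At 0.5 kb after the start, 63.8% of genes were covered by Pol2-S5p and 54.5% by Pol2-S7p, which is 85.4 genes with Pol2-S7p for every 100 with Pol2-S5p. At 3 kb the shares were 36.6 and 35.7%, and the ratio had risen to 97.4 per 100. At 5 kb they were 35.9% (35.1 to 36.7%) and 34.7% (33.9 to 35.5%), with 1077 genes under Pol2-S5p alone and 907 under Pol2-S7p alone. Pol2-S5p then made up 54.3% of the genes with a single mark (52.1 to 56.5%), compared with 90.6% at the start. Without regions over 50 kb that share was 46.4%, the opposite direction. The direction at 5 kb also varied by chromosome. More genes had Pol2-S7p than Pol2-S5p on chromosomes 1, 2, 3, 5, 9, 10, 14, 17 and 18. There the ratio lay between 106 per 100 on chromosome 5 and 119 on chromosome 9. On the other chromosomes apart from Y it was below 100, down to 75.3 on chromosome 6. Genes with Pol2-S7p alone rose from 0.960% at the start to 7.08% at 2 kb after it.

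Upstream of the start the ratio was lower than inside the gene. In the 5840 genes clear of others, Pol2-S5p covered the base 5 kb before the start in 17.4% and Pol2-S7p in 12.04%, a ratio of 69.3 per 100. In the same genes the ratio was 86.5 at the start and 95.6 at 3 kb after it. Both marks therefore fell away in front of the gene, and Pol2-S7p covered fewer genes there than Pol2-S5p.

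**Figure D1:**
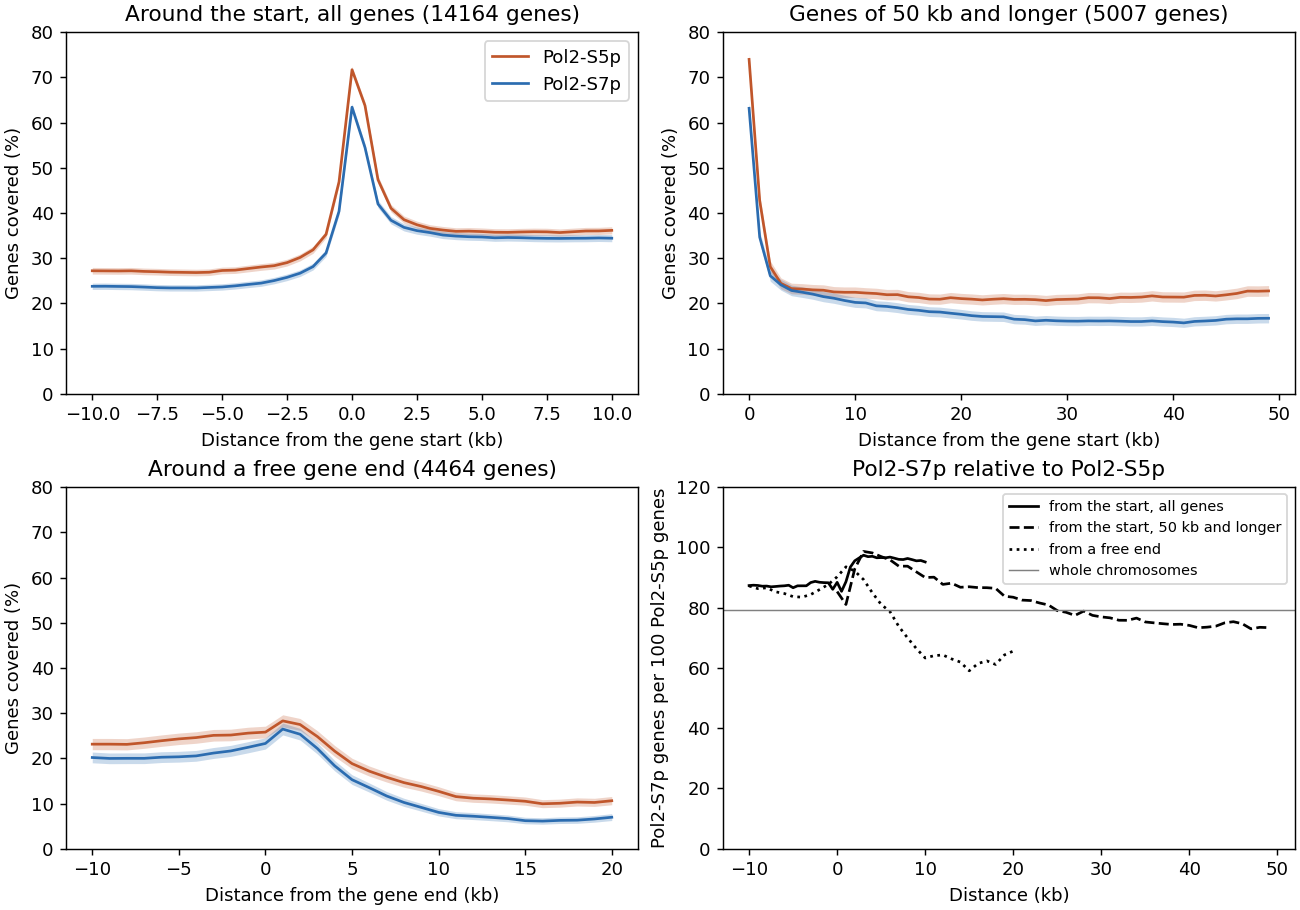
Share of genes covered by Pol2-S5p and by Pol2-S7p (%, lines with exact 95% intervals shaded) against the distance from the gene start or end in kb, for all genes, for genes of 50 kb and longer and around free gene ends, and the number of genes with Pol2-S7p per 100 with Pol2-S5p at each distance. The shares differ by several points at the start, nearly meet at 3 kb after it and part again further into long genes and past the gene end.

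In genes long enough to be followed further, the marks parted again. Over the 5007 genes of 50 kb and longer, 24.4% were covered by Pol2-S5p and 24.1% by Pol2-S7p at 3 kb after the start, a ratio of 98.7 per 100. At 10 kb the ratio was 90.04, at 25 kb it was 79.0 and at 49 kb 73.4, where Pol2-S5p covered 22.7% and Pol2-S7p 16.7%. Between 3 and 25 kb the share covered by Pol2-S7p fell at every step of 1 kb, to 16.5%, while that covered by Pol2-S5p went from 24.4 to 20.9%.

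Genes with both marks at the start were next divided into 20 equal steps from 2 kb after the start to the end. In the first step Pol2-S7p covered more genes than Pol2-S5p, 53.2 against 50.8%, and in the last step fewer, 56.4 against 60.0%. The crossing depended on gene length. Between 10 and 20 kb, Pol2-S7p lay above Pol2-S5p in the first step, 72.9 against 70.0%, and in the last, 76.6 against 75.8%. Between 50 and 100 kb it led in the first step, 42.6 against 37.9%, and trailed in the last, 45.1 against 51.8%. From 100 to 300 kb it trailed from the beginning, with 27.1 against 29.96%, and covered 13.3 against 24.3% just past the middle and 27.6 against 41.4% in the last step. Of the 258 genes of 300 kb and longer, 5.81% had Pol2-S7p and 14.7% Pol2-S5p in the last step.

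**Figure D2:**
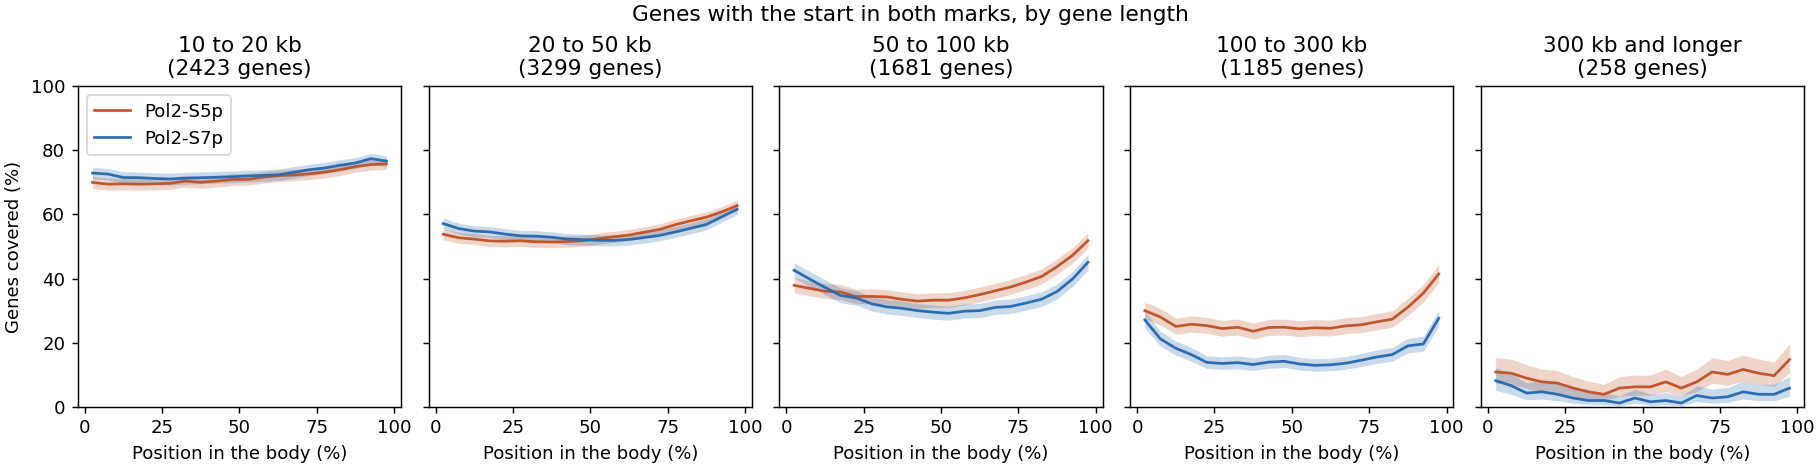
Share of genes covered (%, lines with exact 95% intervals shaded) by Pol2-S5p and Pol2-S7p at 20 equal steps from 2 kb after the start to the gene end (x axis, % of the body), for genes with the start in both marks in 5 length classes. Pol2-S7p is at or above Pol2-S5p in the genes of 10 to 20 kb and below it along the genes of 100 kb and longer.

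Toward the gene end both marks rose, and Pol2-S5p was the more frequent. At 5 kb before the end of all 14164 genes, 41.7% (40.9 to 42.6%) were covered by Pol2-S5p and 36.6% (35.8 to 37.3%) by Pol2-S7p. Pol2-S5p alone covered this base in 1354 genes and Pol2-S7p alone in 619, so that 68.6% of the single-mark genes had Pol2-S5p (66.5 to 70.7%). The ratio of Pol2-S7p to Pol2-S5p genes was 93.8 per 100 in genes of 10 to 20 kb, 91.7 from 20 to 50 kb, 80.9 from 50 to 100 kb, 64.3 from 100 to 300 kb and 53.8 at 300 kb and longer. It therefore fell with each step in length. This ratio was lower than that at 5 kb after the start on 20 of the 20 chromosomes other than Y, which has 102 of the genes. Among these chromosomes it was still above 100 on chromosomes 1, 3, 14 and 18, at 101, 105, 108 and 102. There Pol2-S7p was the more frequent mark before the end. The ratio at the start was lower than that at 5 kb after it on 11 of the 20, so that this contrast varied between chromosomes.

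A body could be covered whole, in part or hardly at all, and the marks mostly gave a gene the same class. Mean cover of the body was 37.1% for Pol2-S5p and 33.9% for Pol2-S7p, with medians of 9.90 and 4.53%. The cover of the same gene by the marks differed by at most 10 percentage points in 10602 genes, 74.9%, of which 3736 had 0% in both and 2348 had 100% in both. Cover of 90% or more by both marks was found in 2866 genes, 20.2%. A touched window of 2 kb centred on the start, with a body covered under 10%, was found for both marks in 2735 genes, 19.3%. Whole-body cover came as 1 unbroken region in 89.0% of 3788 genes for Pol2-S5p and in 94.2% of 3669 genes for Pol2-S7p.

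Pol2-S5p covered the body by at least 50 percentage points more than Pol2-S7p in 890 genes, 6.28% of those compared. Pol2-S7p exceeded Pol2-S5p by at least 50 points in 521 genes, 3.68%. These sets describe the size of the difference and carry no test, and without regions over 50 kb they numbered 796 and 881. Their balance varied by chromosome. On chromosome 6 they held 81 and 12 genes, and on chromosome 8 they held 79 and 12. By contrast, they held 41 and 71 genes on chromosome 1, and 23 and 54 on chromosome 3. The part of the chromosome in the named genes and gene lists below was not tested. Just inside the limit, D6Wsu163e had a body cover of 56.0% by Pol2-S5p and 5.88% by Pol2-S7p, and just outside it Slc13a4 had 57.7 and 7.86%. On the other side, Ufm1, which encodes a ubiquitin-like modifier, had 44.9 and 94.99% and lay inside, whereas Napg, an adaptor of membrane fusion, had 50.2 and 100% and lay outside.

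The share of genes with far more Pol2-S7p was lower above 50 kb than below, and that with far more Pol2-S5p was nearly level up to 300 kb. Far more Pol2-S7p was found in 4.67% of genes of 10 to 20 kb, 4.83% from 20 to 50 kb, 3.06% from 50 to 100 kb, 0.416% from 100 to 300 kb and 0% of the 567 genes of 300 kb and longer. Far more Pol2-S5p was found in 7.22, 6.31, 5.84, 6.23 and 1.59% of the same classes. Above 100 kb, large differences were therefore nearly all toward Pol2-S5p, with 120 genes against 8 between 100 and 300 kb.

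**Figure D3:**
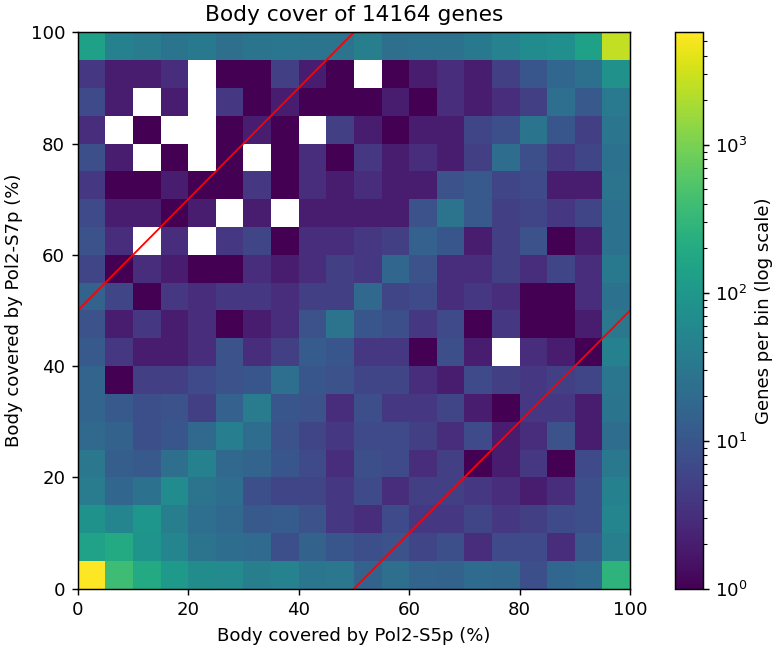
Number of genes (color, log scale) by the percent of the body covered by Pol2-S5p (x axis) and by Pol2-S7p (y axis) in bins of 5 points, for 14164 genes, with red lines at a difference of 50 points. Most genes lie in the corners where both marks are near 0 or near 100%, and 890 genes lie beyond the lower line and 521 beyond the upper one.

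The genes with far more Pol2-S5p and those with far more Pol2-S7p differed in their starts. Among the 890 genes with more Pol2-S5p, both marks lay at the start of 602, 67.6%, and Pol2-S5p alone at 234, 26.3%. Among the 521 with more Pol2-S7p, both marks lay at the start of 475, 91.2%, and Pol2-S7p alone at 26, 4.99%. Over all genes the shares were 62.5% for both marks, 9.26% for Pol2-S5p alone and 0.960% for Pol2-S7p alone. In each group the start with its own mark alone was therefore above the share over all genes. The median lengths were 30.6 and 26.4 kb, compared with 33.3 kb over all genes. The scarce mark covered more genes at both edges of the body than in its middle, which a limit of 50 points partly fixes, since a wide stretch without the mark takes in the middle. Pol2-S7p covered 18.7% of the 890 genes in the first step, 3.26% just before the middle and 35.8% in the last step, and Pol2-S5p covered 17.5, 5.37 and 43.4% of the 521 genes.

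The 10 genes named for the largest difference toward Pol2-S5p were the longest of a larger number of tied genes. They were Wnk2, Mb21d2, Arhgef10, Ppfia1, Rcor1, Rassf8, Elovl5, Baiap2, Fbln2 and St3gal5, all with a body cover of 100% by Pol2-S5p and 0% by Pol2-S7p. All 10 had both marks at the start, whereas the shorter genes Gata2, Tnnt1 and Tnnt2, with the same body cover, had Pol2-S5p alone there. Wnk2, a kinase of the WNK family that regulates ion transport (chr13:49036303-49148014, minus strand, 111.712 kb), lay within 1 Pol2-S5p region of 207.2 kb that ran from -68.385 to 138.815 kb relative to its start. Its Pol2-S7p region at the start was 2.0 kb wide and ended 1.815 kb into the gene. Mb21d2 (chr16:28826176-28929673, minus strand, 103.498 kb) had a Pol2-S5p region of 128 kb against a Pol2-S7p region of 1.2 kb. Rcor1, the corepressor subunit that binds the REST repressor and the demethylase LSD1, had a Pol2-S5p region of 257 kb and a Pol2-S7p region of 2.0 kb over the start. In Rcor1 a second Pol2-S7p region of 4.6 kb began at 77.449 kb, just past the gene end at 76.551 kb, so that Pol2-S7p lay on either side of a body that Pol2-S5p alone covered.

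The 10 largest differences toward Pol2-S7p, with ties ordered by length, were in Rnf115, Gak, Actr3, Sf3b1, Cdc5l, Capza1, Mastl, Gnai3, Zfp980 and Adss, with 0% by Pol2-S5p and 100% by Pol2-S7p. Of these, 9 had both marks at the start and Zfp980, a zinc finger gene, had Pol2-S7p alone. They include the actin regulators Actr3 and Capza1, the splicing factors Sf3b1 and Cdc5l, and Mastl, a kinase of mitotic entry. Gak, a kinase that takes part in uncoating of clathrin vesicles (chr5:108569411-108629755, minus strand, 60.345 kb), was covered by 1 Pol2-S7p region of 66.6 kb from -0.444 kb relative to the start to 5.811 kb past the end. The Pol2-S5p regions of Gak were one of 1.6 kb over the start, with the same upstream edge, and one of 4.4 kb past the end, with the same far edge. Sf3b1, the branch site subunit of the U2 snRNP (chr1:54985169-55027481, minus strand, 42.313 kb), showed the same arrangement, with a Pol2-S7p region of 52.8 kb and Pol2-S5p regions of 4.6 kb over the start and of 5 kb past the end. In both genes the marks ended at the same place past the gene and differed in the body between.

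**Figure D4:**
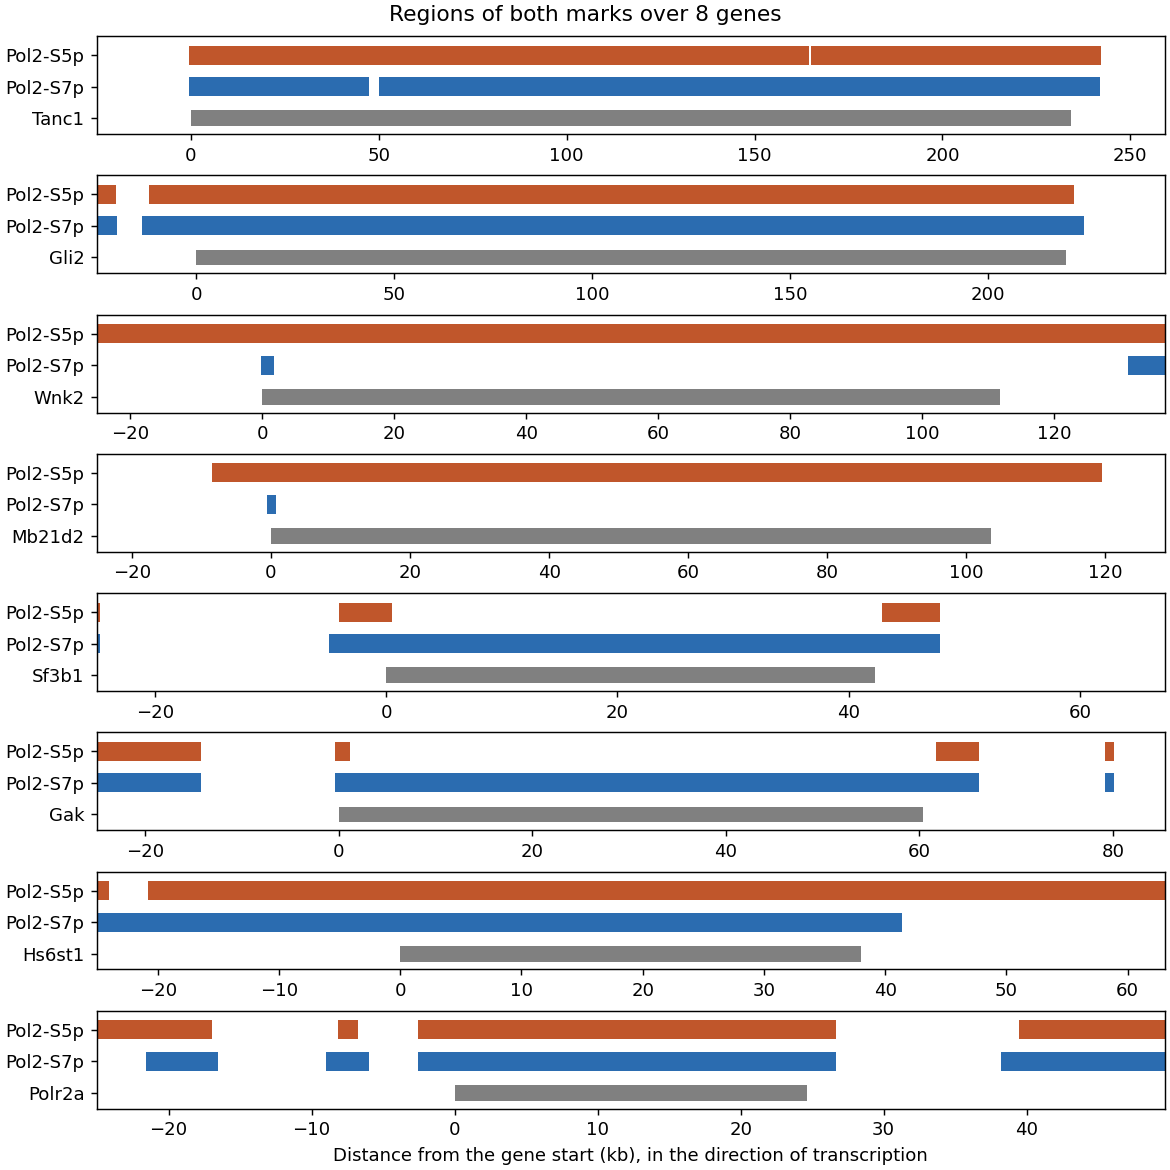
Regions of Pol2-S5p (upper bar) and Pol2-S7p (middle bar) over 8 genes (grey bar) against the distance from the gene start in kb, with 25 kb shown on either side. Tanc1, Gli2 and Polr2a are covered by both marks, Wnk2 and Mb21d2 by Pol2-S5p, Sf3b1 and Gak by Pol2-S7p with Pol2-S5p at the start and past the end, and in Hs6st1 Pol2-S5p runs on beyond the gene end.

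Among the longest genes covered over at least 90% by both marks were Dst, a cytoskeletal linker of 400.437 kb, Hdac4, a histone deacetylase, Tanc1, Abcc4, a drug and nucleotide exporter, Gli2, an effector of Hedgehog signalling, and Jarid2, a subunit of Polycomb repressive complex 2. Dst (chr1:33908225-34308661, plus strand) was covered over 93.9% by 6 Pol2-S5p regions and over 96.6% by 3 Pol2-S7p regions. Both marks ran 4.538 kb past its end. Gli2 (chr1:118834132-119053619, minus strand, 219.488 kb) lay within 1 region of each mark, which ended 2.132 kb past the gene for Pol2-S5p and 4.732 kb for Pol2-S7p. The remaining members of the 10 longest were Dym, Ctif, Epb41l4a and Sipa1l3. At the other extreme, the 5 longest genes with both marks at the start and little cover in the body were Macrod2, Csmd1, Fhit, Ctnna3 and Magi2, of 1478 to 1998 kb, in which body cover lay between 0.134 and 1.08% for either mark. Fhit, a gene at a common fragile site, held 13 Pol2-S5p regions and 7 Pol2-S7p regions in its body, and these covered 1.08 and 0.857% of it.

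Where both marks held the start, neither reached further as a rule. Of the 8846 genes, the Pol2-S5p region that held the start ended more than 1 kb further downstream in 2130 and the Pol2-S7p region in 2124, an even division (50.1% Pol2-S5p, interval 48.6 to 51.6%). The remaining 4592, 51.9%, ended within 1 kb of each other. The regions reached at least 5 kb into the gene in 47.4% for Pol2-S5p and 50.5% for Pol2-S7p, at least 10 kb in 43.4 and 46.3%, and, among genes of 100 kb and longer, at least 100 kb in 6.58 and 5.13%. An unbroken region from start to end was found for both marks in 2260 genes, for Pol2-S5p alone in 605 and for Pol2-S7p alone in 939. Pol2-S7p was therefore more often unbroken and Pol2-S5p more often reached the longest distance. In the 2555 genes with both marks at the start and under 10% of the body covered by either, the start region had a median width of 1400 bp for Pol2-S5p and 1200 bp for Pol2-S7p.

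The state of the start went with the state of the body. This is partly fixed by the measure, since a region that ran from the start into the body counted in both. Of genes with both marks at the start, the start region reached at least 5 kb in 47.4% for Pol2-S5p and 50.5% for Pol2-S7p. Genes with both marks at the start had a median body cover of 47.5% by Pol2-S5p and 37.5% by Pol2-S7p. Genes with Pol2-S5p alone at the start had medians of 5.43 and 0%, genes with Pol2-S7p alone 8.69 and 31.9%, and genes with neither 0% for both. A Pol2-S5p start did not mean a body free of Pol2-S7p, since a Pol2-S7p region touched the body of 650 of the 1311 genes, 49.6%. Along these 1311 bodies Pol2-S7p covered 4.81% of genes in the first step, 10.5% just past the middle and 22.4% in the last, against 35.5, 28.1 and 36.2% for Pol2-S5p. Of all 14164 genes 5840 were clear of others, and the part of neighbouring genes in this rise was not tested.

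Promoter sequence also differed by the state of the start. In the 300 bases from 250 before to 50 after the start, the median number of CG was 21 where both marks lay at the start, 12 with Pol2-S5p alone, 4.5 with Pol2-S7p alone and 3 with neither, compared with 15 over all genes. The motif TATAAA, searched on the strand of the gene in the 50 bases before the start, was found in 0.769% of promoters with both marks, 1.60% with Pol2-S5p alone, 1.47% with Pol2-S7p alone and 3.93% with neither, compared with 1.72% of all. Genes with far more Pol2-S5p in the body had a median of 17 CG and those with far more Pol2-S7p 20. The promoters thus differed more between the states of the start than between the states of the body.

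Over pooled bases, exons were covered more than introns by both marks. Pol2-S5p covered 41.0% of exonic and 19.1% of intronic bases, and Pol2-S7p 36.9 and 15.0%. Pol2-S7p covered 90.2 bases per 100 of Pol2-S5p in exons and 78.5 in introns. Genes covered whole by both marks were richer in exon, at 17.98% of their length compared with 7.70% over all genes. In the 1680 genes covered in part by both marks the contrast was smaller, where Pol2-S5p covered 59.6% of exonic and 41.4% of intronic bases and Pol2-S7p covered 53.3 and 31.6%. With median region widths of 2000 and 2200 bp, these values do not place a mark at exon borders.

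Past a free gene end the marks first rose together and then parted. At the end itself Pol2-S5p covered 25.8% of the 4464 genes and Pol2-S7p 23.3%. At 1 kb past the end the shares were higher, 28.3% (26.98 to 29.6%) and 26.5% (25.2 to 27.8%), a ratio of 93.6 per 100. At 5 kb they were 18.8% (17.7 to 20.02%) and 15.3% (14.2 to 16.4%), with 299 genes under Pol2-S5p alone and 140 under Pol2-S7p alone. Pol2-S5p made up 68.1% of these single-mark genes (63.5 to 72.4%). At this distance the ratio had a median of 81.4 per 100 over the 20 chromosomes other than Y. It ranged from 52.5 on chromosome 6 to 117 on chromosome 10. The median is near the 79.1 covered bases per 100 over whole chromosomes, a ratio of bases and not of genes. The lead at 5 kb is thus about that of the Pol2-S5p list as a whole. At 10 kb the shares were 12.7 and 8.04%, a ratio of 63.3, and at 20 kb 10.6 and 6.97%. Pol2-S7p therefore dropped sooner, and both marks changed little from 15 to 20 kb. The ratio at 5 kb past the end was below that at 5 kb after the start on 16 of 20 chromosomes.

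Cover past the end went with the start, and a region that ran unbroken from the start past the end counted in both. Of the 2265 genes with a free end and both marks at the start, Pol2-S5p covered 47.5% at 1 kb past the end and Pol2-S7p 45.7%, and at 10 kb 20.6 and 13.2%. Of the 1698 with neither mark at the start, the shares at 1 kb were 6.60 and 5.83%. Of the 462 with Pol2-S5p alone at the start they were 12.6 and 5.41%, so that these genes stood nearer to those without marks.

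The lead of Pol2-S5p past the end was also seen gene by gene. In 880 genes with a free end, both marks held the end, and the region ran a median of 6007 bp past it for Pol2-S5p and 4682 bp for Pol2-S7p. Within a gene the median difference, Pol2-S7p minus Pol2-S5p, was only -200 bp, with quartiles of -3000 and 200 bp. Pol2-S5p ran more than 1 kb further in 304 genes and Pol2-S7p in 136, with 440 within 1 kb, so that Pol2-S5p was the longer in 69.1% of the unequal pairs (64.5 to 73.4%). Runs of over 10 kb were found in 33.5% for Pol2-S5p and 22.2% for Pol2-S7p, and runs of over 20 kb, which pass beyond the stretch that was free of other genes, in 18.8 and 10.6%.

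The longest runs past a free end are named with the last 30 bases of the annotated gene, in which the hexamer AATAAA, the usual polyadenylation signal, is in capitals where present. In Hs6st1, a heparan sulfate sulfotransferase (chr1:36068400-36106446, plus strand), both marks covered 100% of the body, but Pol2-S5p ran unbroken for 243.8 kb past the end and Pol2-S7p for 3.353 kb, with a further Pol2-S7p region of 115.8 kb beginning at 63.6 kb from the start, inside the same stretch. In Ube2h, a ubiquitin-conjugating enzyme, Pol2-S5p ran 226.9 kb and Pol2-S7p 16.1 kb. In Gatad2b, a subunit of the NuRD complex, both ran 152.6 kb, and in Brap, which binds BRCA1, Pol2-S5p ran 127.1 kb and Pol2-S7p 152.3 kb.
Hs6st1, chr1:36106417-36106446, plus strand: ttagcagatgAATAAAccctgaaaaggtca
Ube2h, chr6:30211289-30211318, minus strand: ttaAATAAAatgtgtatataccttggcaaa
Gatad2b, chr3:90363378-90363407, plus strand: ttAATAAAgaaaggaatggtttctaagctt
Brap, chr5:121687227-121687256, plus strand: aatgttattttaaaaggtcaaagagttacg
AATAAA, searched on the strand of the gene, lay in the last 50 bases of 61.9% of all genes, of 63.0% of those with a free end and of 66.4% of the 880 with both marks at the end. The other long runs of Pol2-S5p were at Litaf (395.3 kb) and Clec16a (350.1 kb), which face each other and shared 1 region, and at D430019H16Rik (255.9 kb). The other long runs of Pol2-S7p were at Ncl, the nucleolar protein nucleolin (285.7 kb), Smad7, an inhibitor of TGF-beta signalling (196.3 kb), and Trappc8, a subunit of a vesicle tethering complex (137.8 kb). Such runs went well beyond 20 kb and covered other genes.

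The gene lists were read by role, beginning with the machinery of transcription itself. Each count past the limit is to be set against 6.28% of all genes for Pol2-S5p and 3.68% for Pol2-S7p, and with 21 to 54 genes in a list most of the intervals of single lists include these shares. Since cover sits mostly near 0 or 100%, separate medians of the marks can lie far apart where many genes differ little. Polr2a, which carries the CTD (chr11:69733997-69758637, minus strand, 24.641 kb), lay within 1 region of each mark with identical edges, from -2.562 kb relative to the start to 1.997 kb past the end. Of 21 Pol2 subunits and CTD enzymes of 10 kb or longer, 20 had both marks at the start, and median body cover was 83.3% by Pol2-S5p and 66.1% by Pol2-S7p. Gene by gene the median difference was 0 points, with Pol2-S7p higher in 7, Pol2-S5p higher in 4 and 10 equal. Past the limit of 50 points were Ctdspl, a CTD phosphatase of the small family (86.7% Pol2-S5p, 28.6% Pol2-S7p), and Rpap2, a CTD serine 5 phosphatase (0 and 51.9%). Mnat1, the assembly factor of the kinase complex that phosphorylates serine 5 and serine 7, was covered over 1.08 and 0.944% of its 150.272 kb.

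Among factors of pausing and elongation, the median body cover was 43.4% by Pol2-S5p and 82.9% by Pol2-S7p over 26 genes. Gene by gene the median difference was 0 points, with Pol2-S7p higher in 11, Pol2-S5p higher in 7 and 8 equal. Far more Pol2-S7p was found in 3 of them, 11.5%, and far more Pol2-S5p in 1, 3.85%. Ccnt2, a cyclin of P-TEFb, had 37.9% Pol2-S5p and 100% Pol2-S7p, and Iws1, a partner of the elongation factor Spt6, 17.1 and 70.5%. In the opposite direction Ell2, a subunit of the super elongation complex, had 86.2% Pol2-S5p and 28.7% Pol2-S7p, with Pol2-S5p alone at the start. Cdc73, a subunit of the PAF complex, stood at 6.66 and 46.5%, short of the limit.

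In 3′ end processing and termination, 4 of 24 genes, 16.7%, had far more Pol2-S7p and 0 far more Pol2-S5p, against 3.68 and 6.28% of all genes. The separate medians were 84.1% for Pol2-S5p and 97.4% for Pol2-S7p, and the median difference was 0 points, with 10 genes equal. These were Cstf3 (0 and 70.6%), Fip1l1 (0 and 52.7%), Cpsf6 (10.8 and 66.6%) and Cpsf2 (11.96 and 100%), all parts of the cleavage and polyadenylation machinery. Of 25 spliceosome genes, 3, 12% of the list, had far more Pol2-S7p, namely Sf3b1 and Cdc5l, given above, and Snrnp200, the helicase that unwinds U4 from U6 (27.4 and 100%). Most spliceosome genes were covered alike, with medians of 98.8 and 100%.

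Of 24 chromatin remodellers, 4, 16.7%, had far more Pol2-S7p and 1, 4.17%, far more Pol2-S5p. The separate medians were 46.9% for Pol2-S5p and 87.7% for Pol2-S7p, but the median difference within a gene, Pol2-S5p minus Pol2-S7p, was -0.387 points. Ep400, the ATPase of the TIP60 complex, had 34.0% Pol2-S5p and 100% Pol2-S7p, Pbrm1, a subunit of PBAF, 13.2 and 100%, Smarca5, the ISWI ATPase, 0 and 86.9%, and Hells, a remodeller needed for DNA methylation, 28.5 and 88.5%. Bptf, the largest subunit of NURF, had 98.1 and 43.3%. Of 29 DNA replication genes, Pole, the catalytic subunit of polymerase epsilon (42.5 and 100%), and Orc2, of the origin recognition complex (7.01 and 100%), had far more Pol2-S7p, and the medians were 100% for both marks.

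The Polycomb list held examples in both directions. Suz12, a core subunit of Polycomb repressive complex 2, had 0% Pol2-S5p and 85.4% Pol2-S7p, and Pcgf6, of a variant Polycomb repressive complex 1, 15.1 and 100%. Phc2, a subunit of the canonical complex, had 78.6 and 27.1%. The medians over 25 Polycomb genes were 97.5 and 100%. The 26 pluripotency genes had medians of 100% for both marks, and the 1 past the limit was Nr5a2, a nuclear receptor, with 95.8% Pol2-S5p and 30.8% Pol2-S7p.

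Genes of development and signalling had less of both marks in the body than all genes, and they were longer. Median body cover by Pol2-S5p and Pol2-S7p was 3.23 and 0.0631% for developmental transcription factors and 4.02 and 1.55% for signalling genes. Over all genes it was 9.90 and 4.53%. The median lengths were 96.5, 90.9 and 33.3 kb. Mean cover by Pol2-S5p fell from 50.8% in genes of 10 to 20 kb to 29.1% in those of 50 to 100 kb. The part of length in the lower cover of these lists was not tested. Far more Pol2-S5p was found in 4 of 49 developmental transcription factors, 8.16% (2.27 to 19.6%), and in 6 of 54 signalling genes, 11.1% (4.19 to 22.6%), near the 6.28% of all genes, and far more Pol2-S7p in 0 of either. Of 49 developmental transcription factors, 12 had both marks at the start and 21 Pol2-S5p alone, which is the larger number, whereas over all genes both marks outnumbered Pol2-S5p alone. Gata2, a regulator of blood stem cells, had a body cover of 100% by Pol2-S5p and 0% by Pol2-S7p. This gene of 13.1 kb lay in a Pol2-S5p region that ran 315.8 kb past its end, with another gene within 20 kb of that end. The cover is therefore not particular to Gata2. Lmx1b, of limb and midbrain development, had 75.0 and 0%, and Tfap2a, of the neural crest, 72.0 and 4.74%. The 6 signalling genes were the morphogens Shh (88.3 and 0%) and Bmp7 (100 and 14.5%), the Wnt receptors Lrp5 (96.8 and 0%) and Ror2 (92.0 and 20.99%), Ephb2 (100 and 13.0%) and Pdgfrb (100 and 2.64%).

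Other tissue genes had few marks in the body. The troponin genes Tnnt1 and Tnnt2 had 100% Pol2-S5p and 0% Pol2-S7p, with Pol2-S5p alone at the start, among 27 muscle genes with medians of 1.95 and 0%. Of 27 liver and immune genes, 21 had neither mark at the start, and Serpinc1, which encodes antithrombin, was the 1 past the limit with 100 and 0.0593%. Of 40 long synaptic and adhesion genes, 15 had Pol2-S5p alone at the start, 39 had under 10% of the body covered by each mark and 0 passed the limit in either direction.

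Grouped after their values were seen, the 6 lists of nuclear machinery (polymerase, elongation, 3′ processing, splicing, remodelling and replication) held 149 genes, of which 17, 11.4% (6.79 to 17.6%), had far more Pol2-S7p and 3, 2.01% (0.417 to 5.77%), far more Pol2-S5p. The background was 3.68 and 6.28% over all genes. Over the 8846 genes with both marks at the start, it was 5.37% for Pol2-S7p and 6.81% for Pol2-S5p. The 4 lists of development, signalling, synapse and muscle held 170 genes, of which 12, 7.06% (3.70 to 12.01%), had far more Pol2-S5p, a share near the background, and 0 far more Pol2-S7p (interval to 2.15%). The machinery genes were also more often marked at the start, with both marks at 136 of 149 compared with 60 of 170, and shorter, with a median of 36.8 kb compared with 159 kb. When regions over 50 kb were left out, the machinery genes past the limit numbered 21 for Pol2-S7p and 11 for Pol2-S5p, and the genes of the other lists 4 and 6. In this setting 881 of all 14164 genes had far more Pol2-S7p and 796 far more Pol2-S5p. Among genes clear of others, 4 of 47 machinery genes had far more Pol2-S7p and 1 far more Pol2-S5p, and of 37 genes of the other lists 0 and 5. Of all 5840 genes clear of others, 174 had far more Pol2-S7p and 314 far more Pol2-S5p.

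**Figure D5:**
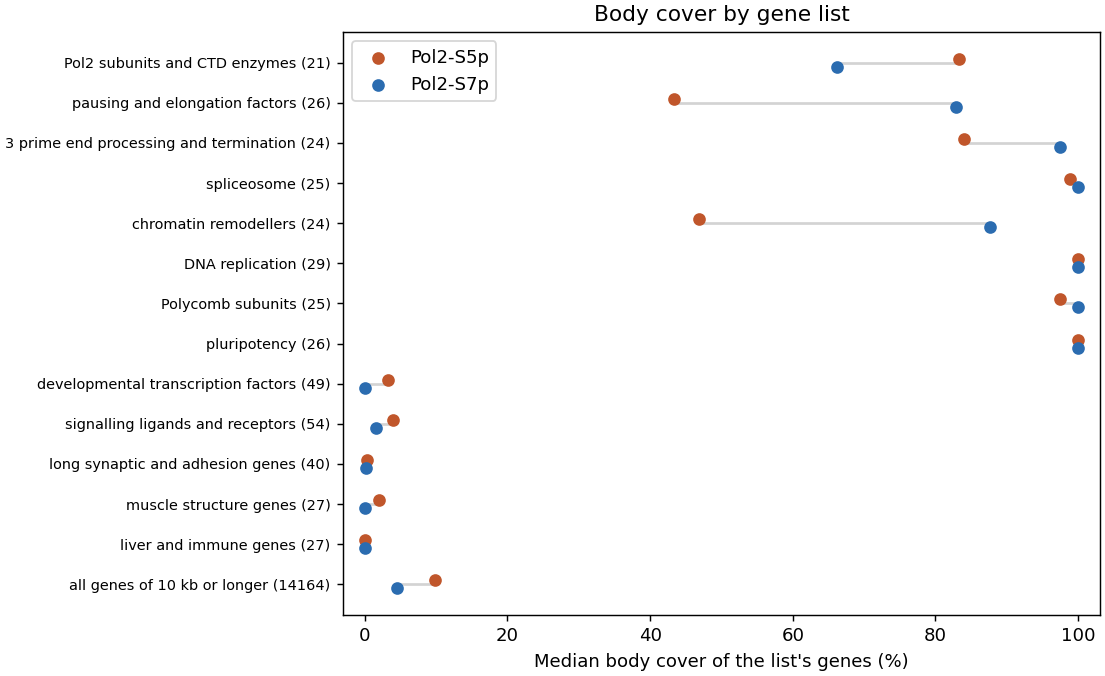
Median percent of the body covered by Pol2-S5p and by Pol2-S7p (x axis) over the genes of 10 kb or longer in 13 gene lists and over all genes, with the number of genes in parentheses. The Pol2-S7p median is above the Pol2-S5p one for elongation factors, 3′ processing factors and remodellers, where the median differences within a gene are 0, 0 and -0.387 points, and both marks are near 0% in the lists of other tissues.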

How the data were processed

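Chromatin immunoprecipitation sequencing of Pol2-S5p and Pol2-S7p in F123 cells gave 1 list of regions per mark. According to the labels and the published methods, the authors aligned 75 bp single-end reads with Bowtie2 2.3.4.3 to mm10, with strain variants masked, and called regions in each library with a Bayesian change-point finder in its mode for histone marks. The deposited width, an other kind of value in bp, was a multiple of 200 bp. The positions and no deposited score were used, so read depth per region was not used here. The change-point calls can merge nearby enrichment into 1 region or break it, and depend on the depth of each library.

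Genes were taken from GENCODE release M21. The start was the 5′ end of the gene record and the body ran from 2 kb after it to the gene end. A base was covered when a region held it. Shares of genes have exact Clopper-Pearson intervals at 95%, for counting error only. Neighbouring genes can lie in 1 region and are not independent. With 1 library per mark, no test was made. A difference in body cover was counted from 50 percentage points on. Named were the 10 largest differences in each direction (ties by length), the 10 longest genes covered over 90% or more by both, the 5 longest runs past a free end per mark, the 5 longest genes with marked starts and bodies under 10%, Polr2a, and of each list the longest 5 or those past the limit, of which a selection is given and some are not reported here. D6Wsu163e, Slc13a4, Ufm1 and Napg were chosen after their values were seen. The genes and lists were chosen with earlier results of these data known. Promoters of all 14164 genes and gene ends were read from the mm10 reference.

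Alternatives were the principal transcript, genes clear of others, a minimum length of 20 kb, leaving out regions under 1 kb or over 50 kb, joining regions over gaps of up to 1 kb, and other limits. The functions were tested on simulated data. Python 3.11.15, NumPy 2.4.6, SciPy 1.17.1, pysam 0.24.0 and Matplotlib 3.10.9 were used.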

Additional observations from a re-analysis of the deposited data

How the results depend on the processing

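Of 55 values recomputed under 10 alternatives, 40 stayed within their interval (counts, within 1.5 times). Leaving out regions over 50 kb changed the most: Pol2-S5p made up 64.6% of single-mark genes at the start, 46.4% at 5 kb after it, a reversed direction, 55.7% at 5 kb before the end and 59.2% at 5 kb past it, 44.1% of unequal reaches from the start and 62.6% of unequal runs past the end, and the genes with more Pol2-S7p in the body numbered 881, above the 796 with more Pol2-S5p. This alternative removes the widest regions. Leaving out regions under 1 kb gave 79.3% at the start. A minimum length of 20 kb gave 52.0% at 5 kb after the start, 71.0% at 5 kb before the end and 334 genes with more Pol2-S7p. Genes clear of others, a smaller set, gave 314 genes with more Pol2-S5p and 174 with more Pol2-S7p, among them 4 and 1 of 47 machinery genes toward Pol2-S7p and Pol2-S5p. Joining regions over gaps of up to 1 kb gave 51.9% of unequal reaches from the start, and counting runs past the end that differed by over 5 kb gave 74.1%. The direction at the start, before the end and past the end was toward Pol2-S5p in every alternative run. The alternatives for the machinery and development lists, and gene ends with AATAAA, where Pol2-S5p made up 68.4% at 5 kb past the end, were added after seeing the data. No paired analysis was possible because each mark had 1 library and no test was made. Read depth, which the region lists do not hold, limits how far a missing region can be read as a missing mark.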

Other observations

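Over the 20 chromosomes other than Y, mean body cover was lowest on chromosome X, with 23.6% for Pol2-S5p and 19.5% for Pol2-S7p in these male cells. It was highest on chromosome 8 for Pol2-S5p (46.7%) and on chromosome 15 for Pol2-S7p (43.4%), against medians of 35.8 and 36.0% over the chromosomes. Pol2-S7p covered the base 5 kb after the start in 75.3 genes per 100 with Pol2-S5p on chromosome 6 and in 119 on chromosome 9. Each chromosome is 1 value per mark, and these differences were not tested.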
